A study of Mus musculus with 8 samples.

Results

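Transforming growth factor beta (TGF-beta) signalling was read through 10 genes, listed by name for their place in the pathway: the ligands Tgfb1, Tgfb2 and Tgfb3, the receptors Tgfbr1, Tgfbr2 and Tgfbr3, and the intracellular mediators Smad2, Smad3, Smad4 and Smad7. The 8 Affymetrix arrays carried 25 probe sets annotated to one of these genes alone, out of 34945 probe sets that named a single gene. All 10 genes had a probe set above the level filter (the 40th percentile of probe sets) and were tested, among 13586 genes tested of 18193 with a probe set. The tissue was labelled as palate, its rear part, from BALB/c pups on postnatal day 1. Pregnant dams had carried an osmotic minipump under the skin, releasing sterile physiological saline (the controls) or nicotine at 1.5, 3.0 or 4.5 mg/kg/day until they gave birth. The 4 groups had 2 arrays each, called biological replicates in the labels. The protocol mentions newborn pups with an n of 2. Nothing in the labels says whether an array is 1 pup or a pool, or which litters were used, so p-values measure the spread between these samples.

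TGF-beta ligands are secreted in a latent form and, once released, bind Tgfbr2, a serine/threonine kinase that recruits and activates Tgfbr1, while Tgfbr3 (betaglycan) presents ligand at the cell surface. Activated Tgfbr1 phosphorylates Smad2 and Smad3, which join Smad4 and enter the nucleus to control transcription. Smad7 is a feedback inhibitor of the receptors. In the developing mouse palate Tgfb3 is made by the epithelium at the edge of the palatal shelves and is needed for the shelves to fuse; fusion takes place before birth, so these newborn samples postdate it.

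Markers of organs other than palate were found in the arrays and differed between the groups. Marker lists were read as the number of genes above the 60th percentile of probe sets, as summed intensity and as the median log2 level. Of 15 stomach genes, 2 to 4 were above it in the nicotine arrays and 11 to 12 in the saline arrays, with sums of 273 to 696 in nicotine and 11988 to 12218 in saline. Of 15 liver genes, 13 were above it in nicotine 1.5 replicate 2 and at most 1 in the other nicotine arrays, against 12 and 15 in the saline arrays. Of 9 kidney genes, 8 were above it in saline replicate 2, 2 in saline replicate 1 and at most 1 in the nicotine arrays. Of 14 heart genes, 13 were above it in nicotine 1.5 replicate 2 and 4 to 7 in the other arrays. Brown fat, lung, cartilage and epithelial lists also differed between arrays. Of 9 genes that mark palate mesenchyme, 4 to 5 were above that level in nicotine arrays and 3 to 4 in saline arrays, and Tbx22, Barx1, Lhx8 and Pax9 were above it in no array. The actin 3' to 5' signal ratio, which rises as RNA degrades, averaged 1.70 ± 0.07 in saline, 1.29 ± 0.13 at nicotine 1.5, 1.10 ± 0.06 at 3.0 and 1.05 ± 0.14 at 4.5 (SD, n = 2 each). The X-inactivation RNA Xist was low in nicotine 3.0 replicate 1 (6.44) and saline replicate 1 (7.82) and stood at 703 to 1145 elsewhere. Median intensity per array lay between 20.7 and 25.4.

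**Figure D1:**
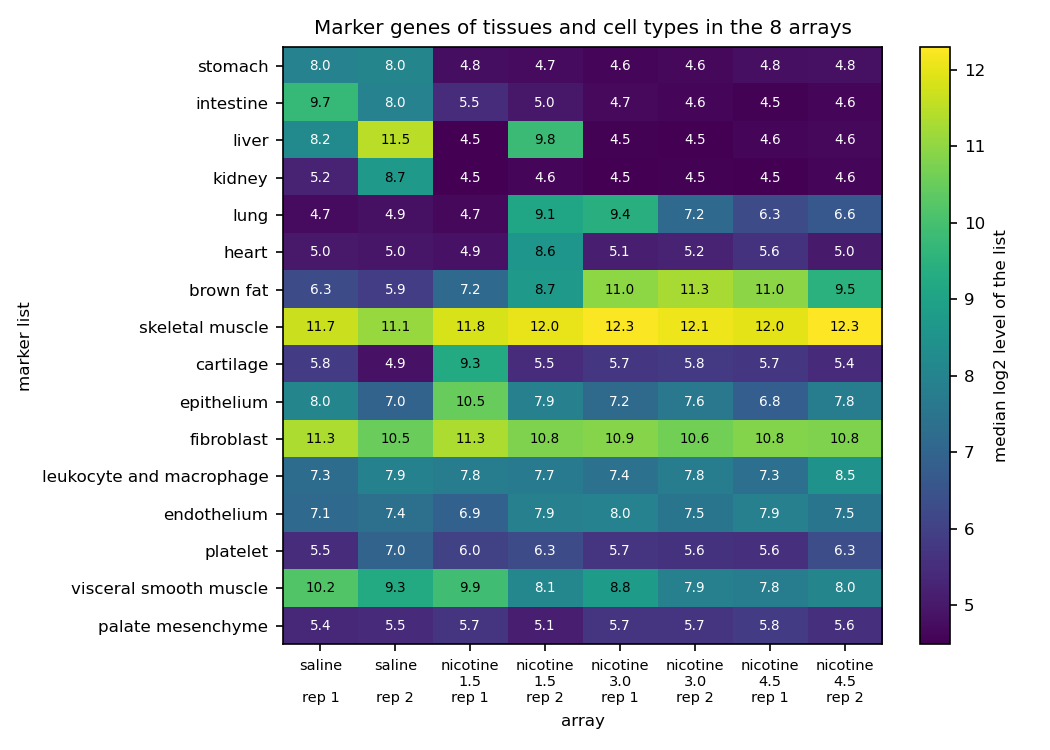
Median log2(intensity + 16) of each marker list (rows) in each of the 8 arrays (columns), with the value printed in each cell and shown by colour. Stomach and intestine lists stand at no more than 5.48 in the nicotine arrays and at 7.96 to 9.72 in the saline arrays, and skeletal muscle is high in all 8.

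Across the pathway, the mean of the 3 nicotine doses was set against saline first, since it uses all 8 arrays. Tgfb3 rose and was the 1 gene of the 10 to pass the test (adjusted p under 0.05, Benjamini-Hochberg over all genes tested). In that comparison 10.2% of all genes tested passed in either direction and 4.75% passed as higher, so 1 of 10 is at the background share. Of the 10 genes 8 had a positive log2 fold change, with a median of 0.35, against a median of 0.07 over all genes tested, of which 55.9% were positive. At an unadjusted p under 0.05 the count was 4 of 10, against 30.8% of all genes. In bulk tissue, fewer cells of a type and less RNA per cell cannot be told apart.

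**Figure D2:**
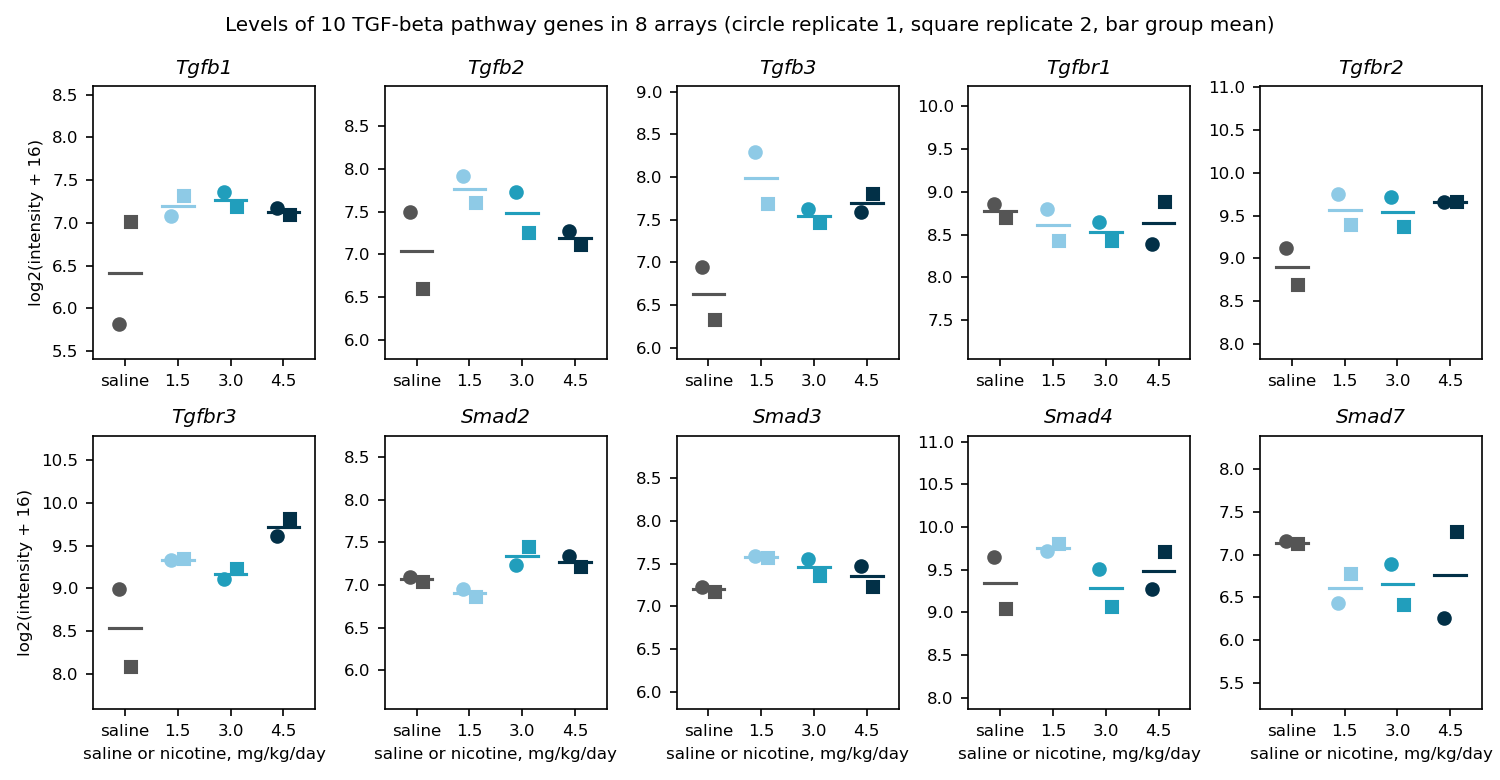
Normalized log2(intensity + 16) of the tested probe set of each gene in saline and at nicotine 1.5, 3.0 and 4.5 mg/kg/day; each point is 1 array and each bar a group mean, and all panels span the same number of log2 units. Tgfb3, Tgfbr2 and Tgfbr3 lie above both saline arrays at every dose, and so does Tgfb1, by a small margin over saline replicate 2.

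Tgfb3, the ligand of palatal fusion, was read by a single probe set (1417455_at). Its deposited intensities were 118 and 67.3 in saline, 274 and 196 at nicotine 1.5, 183 and 159 at 3.0, and 171 and 195 at 4.5. All 6 nicotine arrays lay above both saline arrays. With the mean of the doses Tgfb3 rose by 1.11 ± 0.24 on the log2 scale (SE; 95% interval 0.55 to 1.67; limma adjusted p = 0.0344), a fold of 2.16. The highest value was in nicotine 1.5 replicate 1, where the cartilage and epithelium lists were also highest, with median log2 levels of 9.27 and 10.50 against at most 5.83 and 8.05 elsewhere. Without that array the change was 1.01 (adjusted p = 0.0410). Without both arrays highest in liver genes, nicotine 1.5 replicate 2 and saline replicate 2, it was 0.90 (adjusted p = 0.0467). The call was lost without saline replicate 2, at 0.80 (adjusted p = 0.138), without either array of nicotine 3.0 (adjusted p = 0.100 and 0.0916) or of nicotine 4.5 (0.0683 and 0.0682), and with array weights (0.0619). The stomach list and the actin ratio divide the same groups, and their part in this rise was not tested.

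The other ligands were less even. Tgfb1, the most widely expressed isoform, made by leukocytes, platelets and connective tissue among others, had intensities of 46.0 and 119.6 in saline, 114 and 149 at nicotine 1.5, 148 and 127 at 3.0, and 121 and 113 at 4.5. Saline replicate 1 was low and saline replicate 2 lay inside the nicotine range on this scale. The change of 0.79 ± 0.30 (95% interval 0.07 to 1.50) did not pass (adjusted p = 0.133). It was 1.39 without saline replicate 2 (adjusted p = 0.0152) and 0.18 without saline replicate 1 (adjusted p = 0.572), so its size rested on which control array was kept. In saline replicate 1 the leukocyte and macrophage list had a median log2 level of 7.26 and the platelet list of 5.47, the lowest of the 8 arrays for both. By summed intensity that array was not lowest: the leukocyte list summed to 1814 to 2992 in nicotine arrays and to 2172 there, and the platelet list to 1169.6 to 2185 in nicotine arrays and to 1355 there. Their part in the low Tgfb1 value was not tested.

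Tgfb2, which acts in heart, skeletal and craniofacial development, had 4 probe sets above the filter. The brightest (1450923_at) gave 177 and 84.7 in saline, 209.6 and 184 at nicotine 1.5, 198 and 134 at 3.0, and 133 and 115 at 4.5. Saline replicate 1 lay among the nicotine values and saline replicate 2 below all of them. The change with the mean of the doses was 0.44 ± 0.27 (95% interval -0.20 to 1.07; adjusted p = 0.304). On the other 3 probe sets it was 0.02, 0.29 and 0.59; the last (1450922_a_at) had all 6 nicotine values above both saline values after normalization. At single doses Tgfb2 stood at 0.72 ± 0.33 at nicotine 1.5, 0.44 ± 0.33 at 3.0 and 0.15 ± 0.33 at 4.5 (SE), with adjusted p from 0.269 to 0.782. The difference between 4.5 and 1.5 mg/kg/day was -0.56 ± 0.33 (adjusted p = 0.691).

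Among the receptors, Tgfbr2 and Tgfbr3 were higher in every nicotine array than in both saline arrays, though neither passed the test, and Tgfbr1 was not. Tgfbr2, the receptor that binds ligand first, had intensities of 549.9 and 424 in saline, 735 and 644 at nicotine 1.5, 879.7 and 668 at 3.0, and 821 and 764 at 4.5 (probe set 1426397_at). Its change was 0.69 ± 0.19 (95% interval 0.23 to 1.14; adjusted p = 0.0660). A dimmer probe set of the gene stood at 0.54, and the mean of both passed (0.61, limma adjusted p = 0.0454), the 1 of 20 alternatives that did. With array weights adjusted p was 0.148. The change was 0.46 without saline replicate 2, 0.91 without saline replicate 1 and 0.52 without both liver-high arrays.

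The promoters of Tgfb1 and Tgfbr2 are shown. On their tested probe sets these members lay above both saline arrays after normalization, and they had a RefSeq promoter in the table used. For Tgfb1 the separation held on the normalized scale alone. The promoters are from GRCm38.p6, 250 bases before to 50 after the start, and 5 of the 10 genes had one. Capitals mark matches, on either strand, to the GC box GGGCGG, the SMAD box core CAGAC, the CRE TGACGTCA, the AP-1 site TGANTCA, the TATA box TATAAA and the CCAAT box, and no matches overlapped here.
Tgfb1 promoter, chr7:25686752-25687051, plus strand: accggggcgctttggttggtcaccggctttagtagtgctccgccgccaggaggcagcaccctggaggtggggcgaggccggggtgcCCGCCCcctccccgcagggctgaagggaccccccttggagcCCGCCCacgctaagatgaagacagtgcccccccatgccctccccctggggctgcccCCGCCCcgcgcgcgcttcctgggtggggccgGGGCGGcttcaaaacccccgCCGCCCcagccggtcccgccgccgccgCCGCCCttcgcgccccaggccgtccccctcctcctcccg
Tgfbr2 promoter, chr9:116175314-116175613, minus strand: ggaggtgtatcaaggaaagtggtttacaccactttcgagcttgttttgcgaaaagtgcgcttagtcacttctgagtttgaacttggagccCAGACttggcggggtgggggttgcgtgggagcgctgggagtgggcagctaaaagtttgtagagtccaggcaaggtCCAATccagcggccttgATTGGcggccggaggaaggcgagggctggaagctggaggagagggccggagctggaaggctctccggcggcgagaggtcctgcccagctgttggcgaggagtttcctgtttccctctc
In the Tgfb1 window 6 GC boxes and no other motif were found, at 77.0% G and C. The Tgfbr2 window, at 59.0%, held 1 SMAD box core and 2 CCAAT boxes and no GC box. Over 32851 promoters of the same length the median was 52.7% G and C; 35.7% held a GC box, 49.6% a SMAD box core, 37.4% a CCAAT box, 13.6% TATAAA, 7.81% an AP-1 site and 1.79% a CRE. Both promoters lacked TATAAA, and the pair shared none of these motifs.

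Tgfbr3, the co-receptor, had intensities of 505 and 269 in saline, 552 and 623 at nicotine 1.5, 559 and 600.0 at 3.0, and 792 and 858 at 4.5 (probe set 1433795_at). On this probe set both arrays of the highest dose lay above all others. With the mean of the doses Tgfbr3 stood at 0.87 ± 0.24 (95% interval 0.29 to 1.45; adjusted p = 0.0663), and at 1.18 ± 0.30 at 4.5 mg/kg/day (adjusted p = 0.0619). Its second probe set (1425620_at), with 49.9 to 63.7 in the nicotine arrays and 30.3 to 39.5 in saline, passed when tested in its place (0.61, adjusted p = 0.0482). There nicotine 4.5 replicate 1, at 53.3, lay below nicotine 1.5 replicate 1, at 57.2, and below both arrays of 3.0. The first probe set also passed without saline replicate 1 (1.33; adjusted p = 0.0104), with arrays centred on their medians (0.87; 0.0475) and as the mean of both probe sets (0.74; 0.0427). Without saline replicate 2 its change was 0.41 (adjusted p = 0.230). The brown fat list had median log2 levels of 7.16 to 11.27 in the nicotine arrays and 5.91 to 6.31 in saline, while its summed intensities overlapped, at 4206 to 23999 in the nicotine arrays and 1967 to 5716 in saline. Its part in the Tgfbr3 values was not tested.

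Tgfbr1, the signalling kinase, had intensities of 459.7 and 428 in saline, 390.2 and 333 at nicotine 1.5, 397 and 329.7 at 3.0, and 314 and 431 at 4.5 (probe set 1420895_at). The groups overlapped, and the change was -0.18 ± 0.19 (95% interval -0.64 to 0.28; adjusted p = 0.547).

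No SMAD passed the test in any comparison. Smad2 had intensities of 133 and 122 in saline, 102 and 105 at nicotine 1.5, 135 and 158 at 3.0, and 139.8 and 124 at 4.5 (probe set 1420634_a_at). On this probe set it was lowest in both arrays of the lowest dose. The difference of nicotine 3.0 from 1.5 was 0.44 ± 0.17 there (unadjusted p = 0.0356 in limma, adjusted p = 0.429). The other probe set above the filter (1442062_at) had mean log2 levels of 6.38 at nicotine 1.5 and 6.37 at 3.0. With the mean of the doses the change on the tested probe set was 0.11 ± 0.14 (95% interval -0.22 to 0.43, adjusted p = 0.628). Smad3, the partner of Smad2 that binds DNA directly, had 146 and 135 in saline, 167 and 179 at 1.5, 173 and 148 at 3.0, and 156 and 126 at 4.5 (probe set 1454960_at). Its change was 0.26 ± 0.14 (95% interval -0.08 to 0.60; adjusted p = 0.257).

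Smad4, shared by the TGF-beta and BMP branches, had 789.8 and 541 in saline, 718 and 847 at nicotine 1.5, 754 and 529.9 at 3.0, and 618 and 796 at 4.5 (probe set 1422486_a_at). The replicates of a group differed as much as the groups did. Its change was 0.16 ± 0.23 (95% interval -0.38 to 0.71; adjusted p = 0.654), and its 3 probe sets gave values from -0.06 to 0.34. Smad7, the inhibitor, had 139 and 130.3 in saline, 67.6 and 98.9 at nicotine 1.5, 102 and 66.8 at 3.0, and 56.4 and 128 at 4.5 on its brighter probe set (1443771_x_at, whose suffix marks probes that may match other transcripts). On these deposited intensities all 6 nicotine arrays lay below both saline arrays, and after normalization nicotine 4.5 replicate 2 did not. The change was -0.47 ± 0.28 (95% interval -1.14 to 0.21; adjusted p = 0.305). It was -0.30 without nicotine 4.5 replicate 1, -0.63 without nicotine 4.5 replicate 2, the extremes when 1 array was left out, and -0.10 on the other probe set (1423389_at), where saline replicate 2 had 112, above all the rest, which spanned 46.0 to 74.7.

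**Figure D3:**
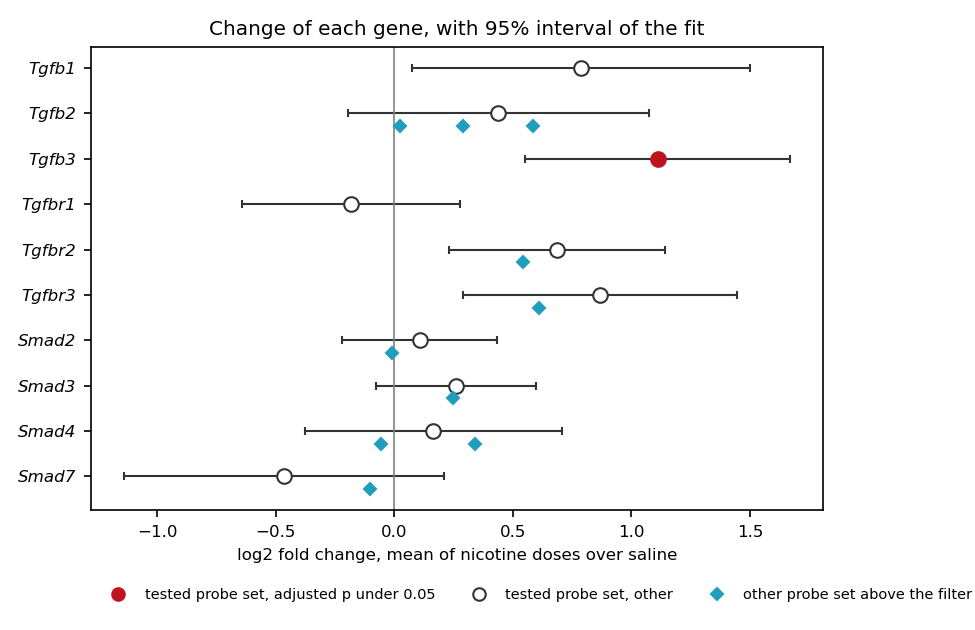
Log2 fold change of the mean of nicotine doses over saline for each gene; circles are the tested probe sets with the 95% interval of the fit, filled where adjusted p is under 0.05, and diamonds the gene's other probe sets above the filter. Tgfb3 is the 1 filled circle, at 1.11; the intervals of Tgfb1, Tgfbr2 and Tgfbr3 lie above 0 and those of the other 6 genes cross it.

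Taking probe sets one by one, 20 of the 25 were above the level filter and 15 of these had a positive change. The other 5, below the filter, were 2 of Tgfbr1 and 1 each of Tgfb1, Tgfbr2 and Smad3, and were not tested. Groups did not overlap in 6 of the 20, all higher with nicotine: those of Tgfb1 and Tgfb3, both of Tgfbr3, 1 of 2 of Tgfbr2 and 1 of 4 of Tgfb2. Counted by gene on the tested probe sets this is 4 of 10, against 16.8% of all genes tested with every nicotine array above both saline arrays; 12.6% had every nicotine array below. On deposited intensities 3 of 10 were above (11.1% of all genes) and 1 of 10, Smad7, below (16.7%). Where a gene had several probe sets above the filter they could differ, as the pair of Smad2 did, with a correlation over the 8 arrays of -0.14, against 0.85 for the pair of Tgfbr3 and 0.92 for the closest pair of Tgfb2.

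At single doses no member passed the test. The counts were 0 of 10 at nicotine 1.5, where 2.48% of all genes passed, 0 of 10 at 3.0 (3.72%) and 0 of 10 at 4.5 (6.87%), with 3, 2 and 3 of the 10 at an unadjusted p under 0.05 in limma. Over all genes the shares at that p were 21.1%, 25.01% and 29.2%, so these counts sat near the background. Tgfb3 was nearest the limit at the lowest dose, at 1.36 ± 0.29 (adjusted p = 0.0630), then stood at 0.91 ± 0.29 at 3.0 (0.122) and 1.07 ± 0.29 at 4.5 (0.0717). On its tested probe set Tgfbr2 was even over the doses, at 0.67, 0.64 and 0.75 (SE 0.24 each, adjusted p = 0.174, 0.159 and 0.0949). Its other probe set above the filter (1425444_a_at) was not. Mean log2 levels there were 5.25 in saline, 5.40 at 1.5, 5.94 at 3.0 and 6.04 at 4.5. The 3 doses share the saline arrays, so agreement between them is not independent. Between the doses, where saline plays no part, 0 of 10 members passed in any of the 3 pairs. No gene of the whole table did either (0% in each pair by limma, with 1472, 963 and 535 genes at an unadjusted p under 0.05 for 3.0 against 1.5, 4.5 against 1.5 and 4.5 against 3.0). That 0 held in every alternative for 4.5 against 3.0. For 3.0 against 1.5 and 4.5 against 1.5 it became 201 and 190 genes without both liver-high arrays, 15 and 13 without nicotine 1.5 replicate 1, and 35 and 31 without nicotine 1.5 replicate 2, with 0 members among them. For Tgfb3 the 95% interval of 4.5 against 1.5 mg/kg/day ran from -0.98 to 0.39, and for Tgfbr3 that of 4.5 against 3.0 from -0.16 to 1.26, wide enough to hold a doubling of Tgfbr3.

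A slope was fitted over the doses 0, 1.5, 3.0 and 4.5. It counts saline as dose 0, so a step between saline and nicotine also gives a slope. It cannot tell such a step from a graded change, and Tgfb3 had its largest change at 1.5 mg/kg/day. None of the 10 genes passed, with 2 at an unadjusted p under 0.05, against 0.802% of all genes that passed (109 genes, and 27.2% at an unadjusted p under 0.05). The total of 109 was not stable: it ranged from 0 to 808 when 1 array was left out, highest without nicotine 1.5 replicate 2 and 0 without either saline array, and was 0 with the replicate block. Tgfbr3 had the steepest slope, 0.22 ± 0.07 log2 units per mg/kg/day (limma adjusted p = 0.0938), followed by Tgfb3 at 0.18 ± 0.10 (0.255). Tgfbr2 and Tgfb1 both stood at 0.15 (limma adjusted p = 0.138 and 0.283), and the other 6 genes lay between -0.07 and 0.07. The 2 genes at an unadjusted p under 0.05 were Tgfbr3 and Tgfbr2.

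**Figure D4:**
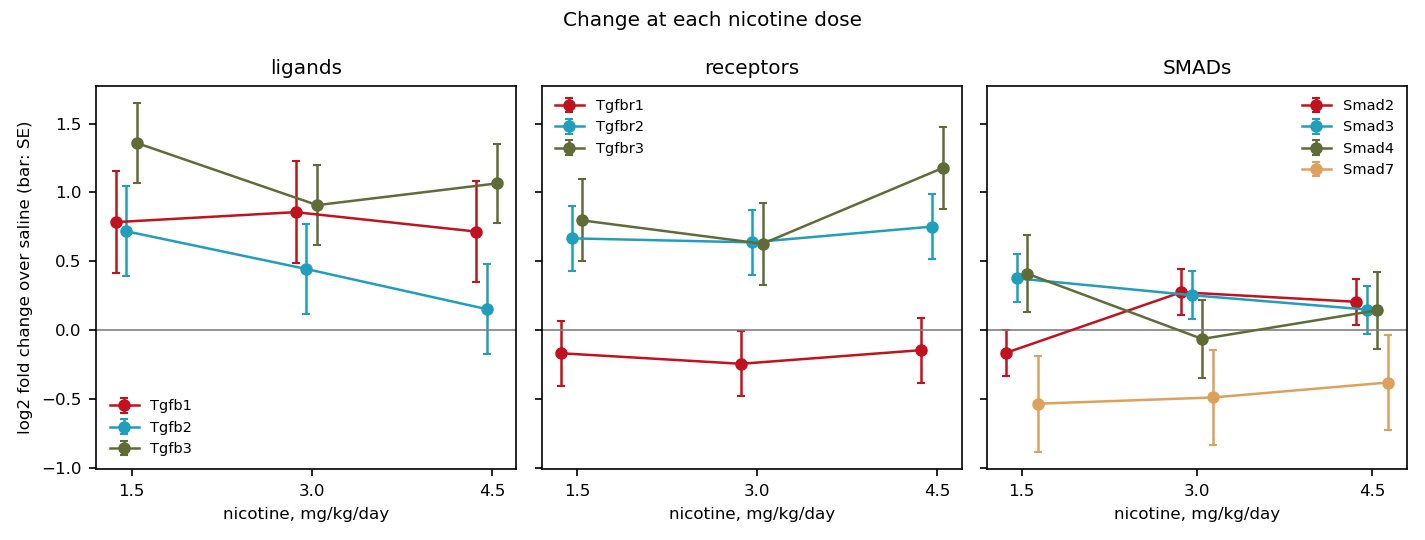
Log2 fold change over saline at nicotine 1.5, 3.0 and 4.5 mg/kg/day for ligands, receptors and SMADs, with standard errors of the fit as bars. Tgfb3 lies between 0.91 and 1.36 and Tgfbr3 reaches 1.18 at the highest dose; all doses share the same 2 saline arrays.

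Pearson correlations of log2 level are given over the 8 arrays, whose values share their group, tissue makeup and RNA integrity. They were 0.93 for Tgfb3 with Tgfbr2, 0.85 for Tgfbr2 with Tgfbr3 and 0.82 for Tgfb3 with Tgfbr3. Tgfbr1 did not follow them, at -0.08 with Tgfbr2, and Smad7 stood at -0.65 with Smad3 and -0.48 with Tgfb3. Of all genes tested, those most like Tgfb3 over the 8 arrays were Thbs3, a thrombospondin of the extracellular matrix (r = 0.996), Iffo1, an intermediate filament family gene (0.993), Crip1, a LIM domain protein (0.986), Antxr1, an anthrax toxin receptor that binds collagen (0.983), and Col23a1, a transmembrane collagen (0.980). In that order they changed by 1.38, 1.35, 0.54, 0.93 and 0.83 with the mean of the doses. Of these, Thbs3, Iffo1 and Col23a1 passed the test. All were picked for following Tgfb3 over the same arrays, so their rise followed from that choice.

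Other genes of the pathway were read from 6 lists by role, 94 genes in all, of which 88 were tested. With the mean of the doses 7 rose and 2 fell, 9 of 88 against 10.2% of all genes. Their median change was 0.17, against 0.07 over all genes. The count was not stable. With array weights it was 3, where 618 of all genes passed, against 1380 in the main fit. It also changed when 1 array was left out, and so did the total over all genes. Among 17 tested genes of latency and activation 2 rose (median 0.00): Ltbp2, of the latent TGF-beta binding protein family, by 1.32 ± 0.26 (limma adjusted p = 0.0281), and Mmp2, a gelatinase that can release latent ligand, by 0.91 ± 0.21 (adjusted p = 0.0446). Ltbp2 had intensities of 105 to 176 in the nicotine arrays, against 85.8 and 37.8 in saline. Of 9 ligand-binding proteoglycans and co-receptors 1 rose (median 0.54), Cd109, a membrane co-receptor that restrains signalling, by 1.32 ± 0.30 (adjusted p = 0.0424).

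None of the 4 SMADs outside the 10, which serve the BMP branch or inhibit, passed (median 0.07), with Smad9 at 0.26 ± 0.19 and Smad1 at 0.12 ± 0.21. Nor did any of 21 partners and regulators of SMADs (median -0.01), where the smallest p were those of Tab1, which activates the kinase TAK1, at 0.91 ± 0.23 (adjusted p = 0.0508), and Ski, a co-repressor of SMADs, at 0.86 ± 0.24 (adjusted p = 0.0634). At an unadjusted p under 0.05 in limma the counts were 0 of these 4 SMADs, 6 of 21 partners, 7 of 17 genes of latency and activation, 4 of 9 co-receptors, 15 of 28 target genes and 4 of 11 fusion partners, in all 35 of 88, against 30.8% of all genes.

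TGF-beta target genes had a median change of 0.50 over 28 tested genes, of which 3 rose and 1 fell. Cdkn1a, the cell cycle inhibitor p21, rose by 1.19 ± 0.15 (adjusted p = 0.00726), with intensities of 742 to 1549 in the nicotine arrays and 441 to 481 in saline. It was the 1 gene of these 9 that passed under all 19 alternatives of processing. Mmp13, a collagenase of bone and cartilage, rose by 2.27 ± 0.44 (adjusted p = 0.0281), with intensities of 208 to 395 in the nicotine arrays and 124 and 20.8 in saline. The change was 1.37 without saline replicate 2 and 3.17 without saline replicate 1. Adam12, a metalloprotease of mesenchyme, rose by 0.89 ± 0.18 (adjusted p = 0.0326), and Cald1, caldesmon of smooth muscle and other contractile cells, fell by 0.98 ± 0.23 (adjusted p = 0.0451). The visceral smooth muscle list does not hold Cald1 but shares Acta2 and Tagln with the target genes. Its medians were 7.76 to 9.92 in nicotine arrays and 9.27 to 10.19 in saline, and its part in the fall was not tested.

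Of 11 tested genes that act with Tgfb3 in palatal fusion 2 rose and 1 fell (median 0.16): Mmp13 again, Jag2, a Notch ligand, by 0.95 ± 0.18 (adjusted p = 0.0264), and Cdh1, the cadherin of epithelia, which fell by 2.13 ± 0.35 (adjusted p = 0.0170). Cdh1 had intensities of 101 to 499 in the nicotine arrays, against 1432 and 1147 in the saline arrays. Stomach and intestine genes were high in those saline arrays, and their part in the fall was not tested. The epithelium list, which holds Cdh1, had overlapping medians, at 6.81 to 10.50 in nicotine arrays and 6.99 to 8.05 in saline.

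**Figure D5:**
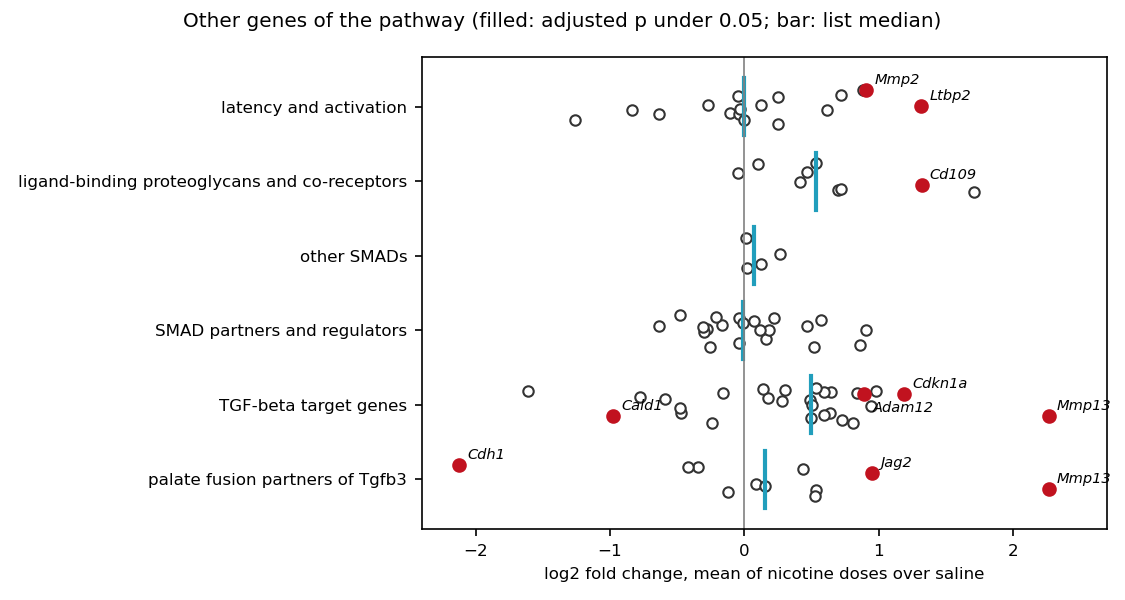
Log2 fold change of the mean of nicotine doses over saline for each tested gene of 6 lists (1 point a gene, spread vertically for legibility), filled and named where adjusted p is under 0.05, with the list median as a bar. Called genes number 9 of 88, with Mmp13 in 2 lists, and Cdh1 and Cald1 are the 2 below 0.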

How the data were processed

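Total RNA labelled with biotin was read on 8 Affymetrix arrays, per the labels' protocols. The authors deposited linear intensity values for 45101 probe sets; the method of summary and scaling was not stated in these sources. Gene symbols came from the platform annotation (34741 of the 34945 probe sets with a single gene were matched to RefSeq by Entrez ID). Values were taken as log2(intensity + 16), which understates the change of dim genes, and quantile-normalized, since array medians differed by 0.17. For a gene, the brightest probe set by mean level was tested, and genes under the 40th percentile of probe sets (log2 level 4.94) were left out. One mean per group was fitted on the 8 arrays in limma 3.58.1 in R 4.3.3 (4 residual and 6.85 total degrees of freedom), 2-sided, with Benjamini-Hochberg adjustment over 13586 genes; the slope had 6 residual degrees of freedom. No arrays held identical values. The 2 arrays of a group correlated over genes at 0.89 to 0.98. The number of arrays limits the precision. On simulated data for the mean of the doses (13586 genes, 10 runs), 93.7% of 4-fold and 16.1% of 2-fold changes were recovered and 0% of 1.5-fold ones. The simulation changed 200 genes per run, while 1380 were called in these arrays. The adjustment is stricter with fewer changed genes, so these shares do not carry over to the arrays. Of the calls pooled over runs, 5.93% were false with 4-fold changes, 10.8% with 2-fold and 100% with 1.5-fold. These pooled shares, above the nominal 5%, do not measure the error rate of the real calls. Genes named from the 6 pathway lists are those that passed, at most 4 a list by smallest p, or the 2 with the smallest p where none did. The members and lists were chosen with earlier results of these data known. Alternatives were another scaling, constant, level filter, probe set rule, variance prior or array weights, each array left out, both liver-high arrays left out, and the replicate number as a block.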

Additional observations from a re-analysis of the deposited data

How the results depend on the processing

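Of the 10 genes, Tgfb3 kept its direction under all 19 alternatives, from 0.80 to 1.42 on the log2 scale, and passed in 13. With the mean of the doses, the count of members called became 2 with arrays centred on their medians, 3 with the mean of probe sets and 0 with array weights. All genes called then numbered 1404, 1452 and 618, against 1380 in the main fit. The count also changed in some fits with 1 array or both liver-high arrays left out, as did the total over all genes. Against single doses the count of members rose without either saline array and without both liver-high arrays, and the total over all genes changed there too. At 4.5 the count was 1 with arrays centred on their medians and with the mean of probe sets. All genes called then numbered 973 and 1029, against 934 in the main fit. Between doses and for the slope the count of members was 0 under every alternative. The 9 other pathway genes called became 3 with array weights and 2 to 14 when 1 array was left out, an analysis chosen after the data were seen. Where a group is left with 1 array, that array is taken to vary as the others do. Directions turned for genes near 0: leaving out 1 array, Tgfb2 ranged from -0.0094 to 0.89 and Smad4 from -0.14 to 0.47, the lowest values being those without saline replicate 2. In other settings, Smad4 stood at -0.15 without both liver-high arrays and -0.057 on probe set 1422485_at, and Smad2 at -0.011 with values as deposited and -0.012 on probe set 1442062_at. The cause was not tested. Replicates share numbers across groups. Differences between the 2 arrays of a group correlated across groups from -0.22 to 0.33, highest for saline with nicotine 1.5. Tissue makeup also differed between arrays, so these values cannot tell whether same-numbered arrays shared a batch or day. With the replicate block the members called stayed at 1 and the genes called in all went to 849, against 1380 without it. That total was 349 to 1542 when 1 array was left out and 618 with array weights. Over all genes the slope called 109, and with other settings 242 (level filter at the 60th percentile), 203 (values as deposited), 164 (constant of 1), 77 (variance trend), 2 (arrays centred on their medians), 1 (constant of 64, no filter, mean of probe sets or array weights) and 0 (replicate block, or without both liver-high arrays).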
